A study of Rattus norvegicus with 8 samples.

Results

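The genes described here encode blood clotting, fibrinolytic and complement proteins that the liver secretes into plasma. They were chosen as a list of 35 gene symbols, from F2 (prothrombin) to C4bpb, and looked up among the probe sets that the platform annotation ties to exactly 1 gene symbol. Of the 35 genes, 29 were measured in this way, by 37 probe sets, out of 14217 genes in all. The 6 others were F7, F11, Kng1, F13b, C2 and Cfb. For each gene the probe set with the highest mean over the 8 arrays was used, and probe sets are named in parentheses where a gene has several.

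The rats were male Wistar rats whose livers had been scarred to cirrhosis by breathing carbon tetrachloride (CCl4), a solvent toxic to hepatocytes, 2 times a week. Every rat of both groups also drank water with 0.3 g/L phenobarbital, which induces hepatic drug metabolism. The control group, 4 rats, is labelled vehicle, although the series description calls it non-treated, and the other group, 4 rats, is labelled antiangiogenic treatment and is called treated below. The sources used here name neither the compound nor its dose nor the ages of the rats, and neither group is a healthy liver. RNA of whole frozen liver from each rat was hybridized to 1 Affymetrix Rat2302 array, and the values are log2 intensities. A difference is the treated mean less the vehicle mean in log2 units, so that 1 unit is a doubling. Values after ± are SDs over the 4 arrays of a group, and intervals are 95% intervals from limma, a linear model with variances shared across probe sets.

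Coagulation proceeds as a chain in which serine proteases activate each other until thrombin cuts fibrinogen into fibrin. Antithrombin, heparin cofactor II and the protein C pathway restrain the chain, and plasmin dissolves the clot. Complement is a related chain of plasma proteases and pore-forming proteins that is started by antibodies, by lectins or on foreign surfaces and converges on C3. Hepatocytes are the main source of most of these proteins, so that their plasma levels are used clinically as a measure of liver synthesis, which is commonly impaired in cirrhosis. Fibrinogen, C3 and C9 are also acute phase proteins, whose genes are induced by cytokines such as interleukin-6.

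The tissue carried the transcripts of hepatocytes at high levels. The mean log2 level of 16 other plasma protein genes of hepatocytes, such as Alb (albumin) and Ttr (transthyretin), lay between 13.33 and 13.62 on the vehicle arrays and between 13.51 and 13.60 on the treated arrays. That of 11 hepatocyte markers, which are enzymes and the surface proteins Asgr1, Asgr2 and Slc10a1, lay between 11.66 and 11.99 and between 11.84 and 12.16. Medians over all probe sets lay between 5.16 and 5.3. The arrays labelled vehicle 4 and treated 3 were nearly identical, with a median absolute difference of 0.031 over the 29 genes against 0.116 to 0.741 in the other 27 pairs of arrays. Over all probe sets it was 0.112, against 0.169 to 0.289 in the other pairs. Vehicle 4 and treated 3 were kept under their labels, and for the 29 genes as a whole and for each further gene list the counts without both are given too.

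The 29 genes were on balance slightly higher in treated livers, and no gene passed the test. In whole tissue, fewer cells of a type and less RNA per cell cannot be told apart. The difference was above 0 for 21 genes and below 0 for 8, with a median of 0.16, and ranged from −0.34 for Masp1 to 0.45 for Klkb1. Of all 14217 genes 51.6% had a difference above 0 with a median of 0.01, and of the 2114 genes at least as bright as the dimmest of the 29, 57.4% did with a median of 0.04. By limma with Benjamini-Hochberg adjustment over 31042 probe sets, 0 of 29 genes had an adjusted p under 0.05 (smallest adjusted p = 0.979), and 0% of all probe sets did. At an unadjusted limma p under 0.05, 1 of 29 genes differed, Mbl2, against 4.75% of all genes (2.8% lower, 1.95% higher) and 3.93% of all probe sets. The groups overlapped for all 29 genes, whereas they lay apart with treated higher for 0.992% and with treated lower for 0.626% of all genes. Without the nearly identical vehicle 4 and treated 3, 21 of 29 genes were above 0 with a median of 0.22, against 52% of all genes. Then 0 of 29 genes had an adjusted limma p under 0.05, against 0.00966% of all probe sets, and 1 of 29 was higher at an unadjusted p under 0.05, against 3.32% of all genes higher and 8.56% in either direction.

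Most of the extreme values stood on 2 arrays. Treated 1 held the highest value of 22 of the 29 genes (75.9%) and vehicle 3 the lowest value of 20 (69.0%), and 19 genes (65.5%) had both. Among the 2114 genes at least as bright, 28.8% were highest on treated 1, 20.1% were lowest on vehicle 3 and 12.8% had both. The median of the 29 genes, each set against its own mean over the 8 arrays, was 0.37 on treated 1 and −0.38 on vehicle 3. On the other arrays it was −0.04 on vehicle 1, 0.13 on vehicle 2, −0.05 on vehicle 4, 0.12 on treated 2, −0.05 on treated 3 and −0.09 on treated 4. Without vehicle 3 and treated 1, a choice made after these values were seen and one that must lower the difference, 13 of 29 genes were above 0 (44.8%, against 62.4% of the bright genes) and the median was −0.02. Leaving out vehicle 3 alone gave a median of 0.05 with 20 of 29 genes above 0 (69%), against 0.05 and 62.1% for the bright genes. Treated 1 alone gave 0.08 with 20 genes, against 0.03 and 57.9% for the bright genes, and vehicle 2 alone 0.25 with 24.

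**Figure D1:**
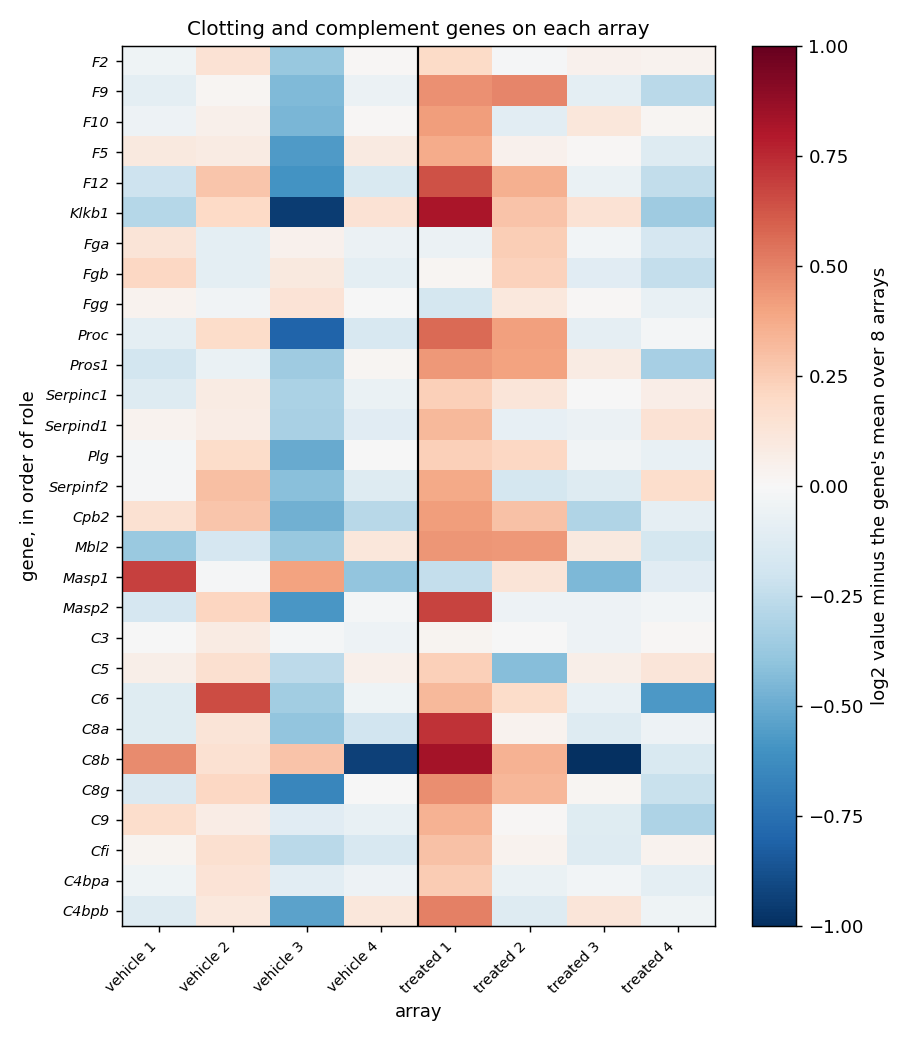
Each row is 1 of the 29 genes in order of role and each column an array. The colour is the log2 value minus the mean of that gene over the 8 arrays, red above and blue below. Treated 1 is red and vehicle 3 blue in most rows (medians 0.37 and −0.38), while Fga, Fgb, Fgg and C3 are pale on all arrays, and C8b is dark blue on vehicle 4 and treated 3.

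Scaling moved the balance. Centring each array on its median, which adds 0.05 to every difference, gave 26 genes above 0 and 3 below, with a median of 0.22. That is 89.7% above 0, against 62.8% of all genes and 66.7% of the bright genes (median 0.09). Centring each array on 27 hepatocyte genes outside the list, which takes 0.08 from every difference, gave 19 above and 10 below, with a median of 0.09. That is 65.5% above 0, against 34.5% of all genes and 43.5% of the bright genes (median −0.04). The arrays were also divided into 3 groups by the levels of the bacterial control RNAs added to each hybridization. The number of groups was set and not found, and each held as many vehicle as treated arrays. The median difference was 0.36 between treated 1 and vehicle 1, 0.13 between treated 2 and 4 and vehicle 2 and 3, and 0.01 between the nearly identical treated 3 and vehicle 4.

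Most markers of other liver cells averaged lower in treated livers, and 0 of them had an adjusted limma p under 0.05 on the 8 arrays. Macrophage markers were lower at 6 of 7 genes, stellate cell and myofibroblast markers, the cells that form scar tissue, at 7 of 8, and vascular endothelium markers at 7 of 7. Mast cell markers were lower at 6 of 6 and bile duct markers at 5 of 5. At an unadjusted limma p under 0.05, against 2.8% of all genes, 4 mast cell, 3 endothelial, 2 stellate cell, 0 macrophage and 0 bile duct markers were lower. Without vehicle 4 and treated 3 these counts were 5, 5, 4, 4 and 1, against 5.24% of all genes. Cpa3, Cma1 (mast cell proteases) and Cldn5 (an endothelial junction protein), named after their values were seen, then had an adjusted limma p under 0.05. The stellate cell marker that was not lower, Lrat, was higher by 0.26 (−0.04 to 0.57) on the 8 arrays. Its difference was 0.39 without vehicle 4 and treated 3. There it was higher at the same unadjusted threshold, against 3.32% of all genes. The mean log2 level of the macrophage markers lay between 8.21 and 9.09 on vehicle and between 7.36 and 8.73 on treated arrays, and that of the stellate cell markers between 7.71 and 8.82 and between 7.10 and 8.31. The corresponding ranges were 6.53 to 7.37 and 6.36 to 6.55 for endothelium, 4.29 to 5.90 and 4.06 to 4.40 for mast cells, and 6.19 to 7.29 and 5.95 to 7.41 for bile duct. On treated 1, where most clotting and complement genes were highest, the median of the macrophage markers against their own means was −1.2001 and that of the stellate cell markers −0.77. On vehicle 3, where most were lowest, these medians were 0.60 and 0.89. Vehicle 1 had 0.9996 and 1.01, while its median for the 29 genes was −0.04. The part of these markers in the difference was not tested.

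**Figure D2:**
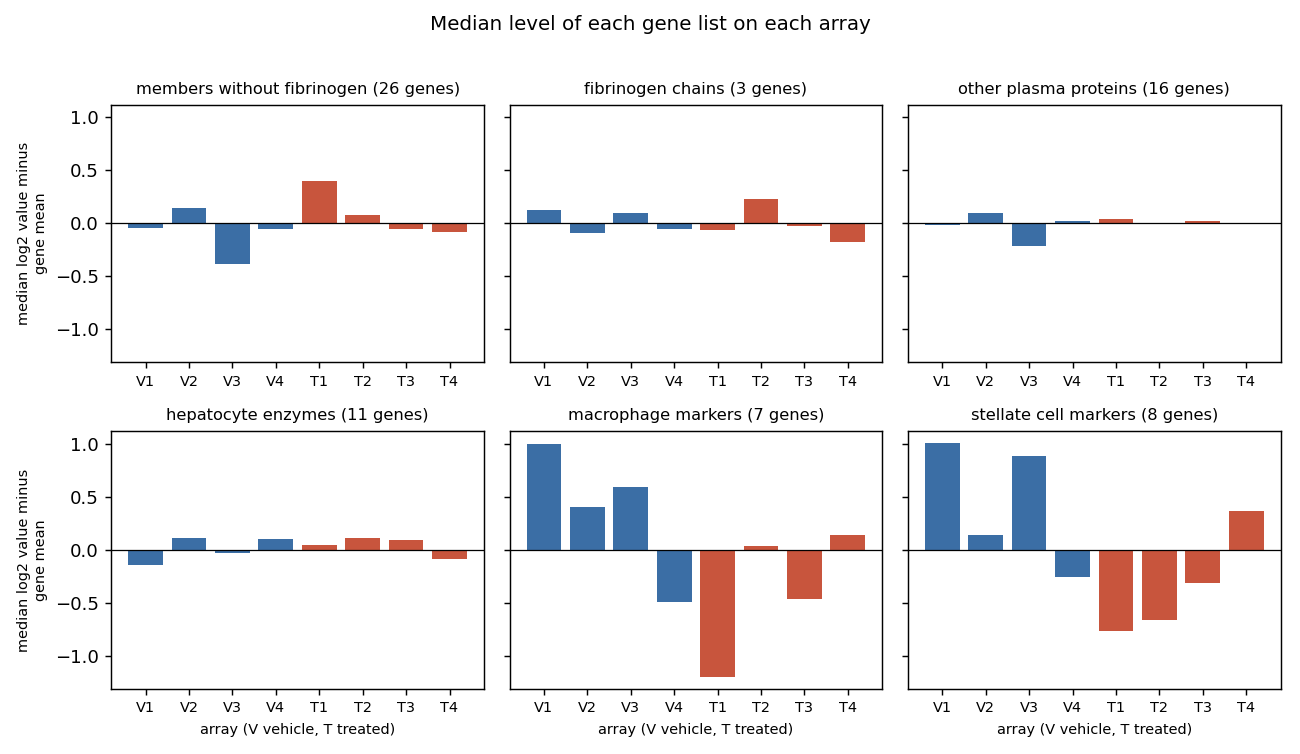
Each panel shows, for a gene list, the median over its genes of the log2 value minus the mean of each gene over the 8 arrays (vertical axis), for vehicle 1 to 4 (V1 to V4, blue) and treated 1 to 4 (T1 to T4, red). The 26 genes without fibrinogen stand at 0.40 on T1 and −0.39 on V3, the 16 other plasma proteins stay between −0.21 and 0.09, and the macrophage markers range from −1.2001 on T1 to 0.9996 on V1. The panel titled hepatocyte enzymes also includes the surface proteins Asgr1, Asgr2 and Slc10a1.

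The promoters of 28 of the 35 genes were found in a RefSeq-derived table of the rat assembly GRCr8, and the 250 bases before the transcription start were searched on both strands for 5 short motifs of hepatocyte and acute phase factors. The sequence TTGCNNAA, a core of sites of C/EBP factors, stood in 11 of 28 genes (39.3%) against 9.22% of all 33469 promoters. The sequence CTGGGAA, the core of an interleukin-6 response element, stood in 8 (28.6%) against 9.56%, and TGTTTAC, read by FOXA factors, in 5 (17.9%) against 3.21%. A match to the HNF1 motif stood in 3 (10.7%) against 0.323%, and CAAAGTCCA, an HNF4 site, in 0 against 0.338%. These are letter matches, and no binding was measured. The table holds all kinds of genes, so that its shares are those of promoters in general and not of liver genes. Promoters are given 5′ to 3′ for 3 genes that were higher on treated 1 than on vehicle 3 (F9, Klkb1 and Serpinc1) and for 2 fibrinogen chains that did not share this pattern (Fgb and Fgg), with the matched motifs in capitals.
F9 (chrX:143388392-143388641, + strand): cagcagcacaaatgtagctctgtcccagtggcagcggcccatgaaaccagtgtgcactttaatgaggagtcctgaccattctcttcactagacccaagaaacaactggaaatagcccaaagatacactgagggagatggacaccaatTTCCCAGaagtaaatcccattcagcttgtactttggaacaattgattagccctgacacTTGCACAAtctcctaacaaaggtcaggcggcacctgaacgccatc
Klkb1 (chr16:53690976-53691225, + strand): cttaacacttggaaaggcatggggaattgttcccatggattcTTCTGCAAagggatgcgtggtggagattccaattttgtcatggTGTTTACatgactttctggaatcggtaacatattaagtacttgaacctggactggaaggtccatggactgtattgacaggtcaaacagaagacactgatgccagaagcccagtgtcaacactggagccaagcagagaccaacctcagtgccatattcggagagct
Serpinc1 (chr13:75790308-75790557, + strand): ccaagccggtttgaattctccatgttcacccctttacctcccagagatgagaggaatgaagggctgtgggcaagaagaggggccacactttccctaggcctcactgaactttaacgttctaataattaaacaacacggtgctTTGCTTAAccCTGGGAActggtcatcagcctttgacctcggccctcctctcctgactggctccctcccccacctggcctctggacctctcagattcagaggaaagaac
Fgb (chr2:170700876-170701125, - strand): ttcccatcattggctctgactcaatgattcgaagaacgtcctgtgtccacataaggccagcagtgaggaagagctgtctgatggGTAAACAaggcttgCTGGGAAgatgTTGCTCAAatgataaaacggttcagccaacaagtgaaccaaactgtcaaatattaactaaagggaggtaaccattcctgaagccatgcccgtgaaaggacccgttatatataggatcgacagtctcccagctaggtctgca
Fgg (chr2:170652833-170653082, + strand): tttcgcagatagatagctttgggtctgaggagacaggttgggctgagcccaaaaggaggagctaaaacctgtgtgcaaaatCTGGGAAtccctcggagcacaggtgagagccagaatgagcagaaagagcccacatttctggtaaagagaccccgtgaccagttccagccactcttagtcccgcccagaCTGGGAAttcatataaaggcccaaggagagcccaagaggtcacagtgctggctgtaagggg
In F9 the capitals are an interleukin-6 element read on the opposite strand and a C/EBP match 45 to 38 bases before the start. In Klkb1 they are C/EBP and FOXA matches, in Serpinc1 C/EBP followed by the interleukin-6 element, in Fgb FOXA, interleukin-6 and C/EBP matches in this order, and in Fgg the interleukin-6 element at 2 places.

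The vitamin K dependent proteases F2, F9 and F10 each averaged higher in the treated group, with intervals that included 0. F2, prothrombin, had values of 13.06, 13.25, 12.73 and 13.12 in the vehicle livers 1 to 4, against 13.29, 13.09, 13.14 and 13.14 in the treated livers 1 to 4. Only vehicle 3 lay below 13, and the difference of 0.13 (−0.17 to 0.42) was −0.02 without vehicle 3 and treated 1. F9, the factor missing in haemophilia B, had 12.35, 12.47, 12.01 and 12.39 in vehicle against 12.91, 12.94, 12.36 and 12.18 in treated livers. Treated 1 and 2 stood above every vehicle array, while treated 3 and 4 lay within the vehicle range. The difference was 0.29 (−0.16 to 0.74; limma adjusted p = 0.979). F10, the protease that cuts prothrombin, averaged 11.41 ± 0.23 and 11.63 ± 0.22 (difference 0.22). F5, the cofactor of F10, averaged 10.77 ± 0.33 and 10.92 ± 0.21, and its difference of 0.15 was −0.12 without vehicle 3 and treated 1.

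The contact system starts clotting on negatively charged surfaces and releases bradykinin. Its 2 measured genes had the largest median difference of any role, 0.39, and also varied widely within groups. Klkb1, plasma prekallikrein, had 11.42, 11.90, 10.75 and 11.85 in vehicle against 12.52, 11.99, 11.85 and 11.35 in treated livers. Its span over the 8 arrays was 1.77, with vehicle 3 lowest and treated 1 highest. The difference, 0.45 (−0.24 to 1.14), was 1.36-fold, and it was 0.01 without these arrays. F12, Hageman factor, averaged 12.02 ± 0.36 and 12.36 ± 0.40, and its difference of 0.34 was 0.04 without them.

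Fibrinogen, the substrate of thrombin, is built of 3 chains, and the genes of all of them were level between the groups. Fga, the alpha chain, averaged 13.97 ± 0.10 in vehicle against 13.96 ± 0.18 in treated livers (1370992_a_at). Fgb, the beta chain, had 13.99, 13.69, 13.88 and 13.69 in vehicle against 13.81, 14.01, 13.67 and 13.55 in treated livers (1370511_at), which differ by −0.05 (−0.35 to 0.25). Fgg, the gamma chain, had 14.16, 14.09, 14.26 and 14.12 and then 13.94, 14.23, 14.13 and 14.04, a difference of −0.07 (−0.31 to 0.16). For Fga and Fgb treated 2 was highest and treated 4 lowest, whereas Fgg was highest on vehicle 3 and lowest on treated 1, the reverse of most other genes of the list. The 3 genes lie side by side in the RefSeq annotation of GRCr8, in the order Fgg, Fga, Fgb.

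These bright probe sets lie close to the top of the scale, since the highest value on any array was 14.79 to 14.85. A second probe set of Fga with lower values (1371258_at) spanned more, from 11.85 on treated 1 to 13.42 on vehicle 1. Its difference was −0.44 (−1.09 to 0.21). The part of the scale in the small spread of the bright probe sets was not tested. The other 2 probe sets of Fgb (1371234_at and 1388266_at) stayed between 3.06 and 3.79, below the 25th percentile of their arrays.

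The 4 measured anticoagulants were all higher in the treated group, with a median difference of 0.25, and the interval included 0 for each. Proc, protein C, which inactivates the clotting cofactors, had 11.92, 12.20, 11.21 and 11.85 in vehicle against 12.58, 12.43, 11.93 and 11.998 in treated livers. Vehicle 3 lay far below the rest, and treated 1 and 2 lay above every vehicle array. The difference was 0.44 (−0.09 to 0.96), or 1.35-fold, with an unadjusted limma p of 0.092, and it was 0.24 without vehicle 3. Pros1, protein S, the cofactor of protein C, had 10.61, 10.72, 10.43 and 10.81 and then 11.22, 11.19, 10.87 and 10.45. Treated 1 to 3 exceeded every vehicle array, and treated 4 lay at the lower end, so that the difference was 0.29 (−0.12 to 0.71). Serpinc1, antithrombin, had 13.28, 13.49, 13.08 and 13.33 and then 13.64, 13.53, 13.40 and 13.47. Here only vehicle 2 reached into the treated range, and the difference was 0.22 (−0.05 to 0.48). Serpind1, heparin cofactor II, averaged 12.60 ± 0.18 and 12.76 ± 0.19. Without vehicle 3 and treated 1 the differences were 0.13 for Proc, 0.13 for Pros1, 0.10 for Serpinc1 and 0.00 for Serpind1.

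The 3 fibrinolysis genes averaged higher in treated livers, with intervals that included 0. Plg, plasminogen, the precursor of the protease that dissolves fibrin, had 13.40, 13.61, 12.92 and 13.42 in vehicle against 13.66, 13.63, 13.39 and 13.35 in treated livers. The groups spanned nearly the same range apart from vehicle 3, and the difference of 0.17 (−0.19 to 0.53) was −0.02 without vehicle 3 and treated 1. Its inhibitor Serpinf2, alpha-2-antiplasmin, differed by 0.13 and Cpb2, a carboxypeptidase that protects fibrin from plasmin, by 0.16. All 3 genes were highest on treated 1 and lowest on vehicle 3.

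**Figure D3:**
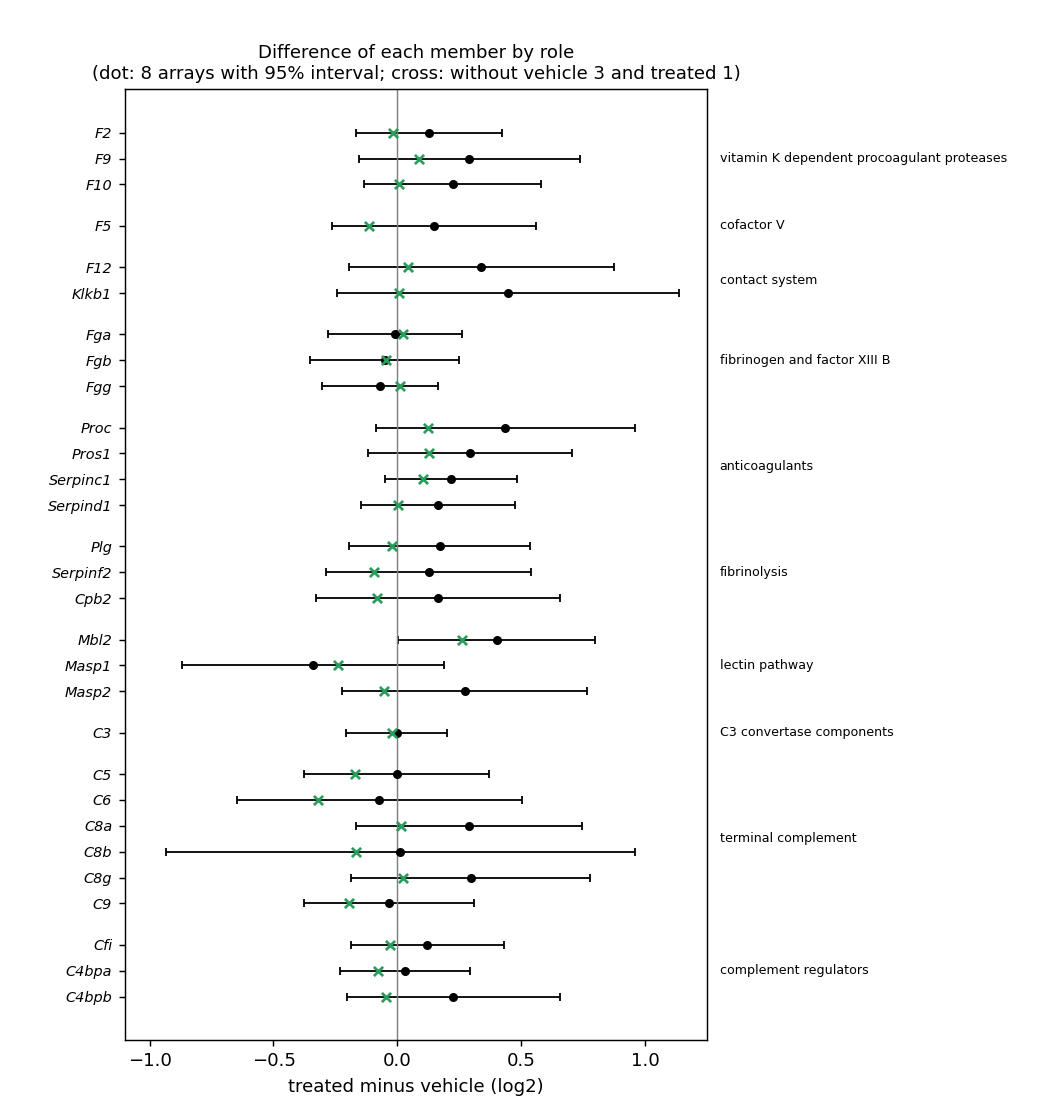
The horizontal axis is the difference treated minus vehicle on the log2 scale for each of the 29 genes, grouped by role. Dots with bars are the differences over 8 arrays with their 95% intervals, and crosses are the differences without vehicle 3 and treated 1. The interval of Mbl2 alone lies above 0 (0.00 to 0.80), and the crosses of Masp1, C5, C6, C8b and C9 stand at −0.17 to −0.32.

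In the lectin pathway, which starts complement on microbial sugars, the recognition molecule Mbl2 and the protease gene Masp2 averaged higher in treated livers, and the probe sets of Masp1 differed in sign. Mbl2, mannose-binding lectin, had 11.27, 11.48, 11.26 and 11.75 in vehicle against 12.08, 12.07, 11.74 and 11.47 in treated livers (1379240_at). Treated 1 and 2 stood above every vehicle array, treated 3 lay beside its near copy vehicle 4, and treated 4 lay within the vehicle range. The difference was 0.40 (0.00 to 0.80), or 1.32-fold, with an unadjusted limma p of 0.048 and an adjusted p of 0.979. A second probe set (1387528_at) gave nearly the same difference, 0.398 (−0.08 to 0.87). Without vehicle 3 and treated 1 it was 0.26 for the first, the largest positive difference of the 29 genes in that comparison.

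Masp1 encodes a protease bound to this lectin and, by alternative splicing, further proteins. Its brightest probe set (1390585_at) had 9.98, 9.28, 9.70 and 8.90 in vehicle against 9.06, 9.43, 8.85 and 9.18 in treated livers. Vehicle 1 and 3 stood above all treated arrays, and the difference was −0.34 (−0.87 to 0.19). The second (1371116_at) went the other way, with 5.998, 6.12, 5.66 and 6.72 in vehicle against 7.68, 7.15, 6.66 and 6.16 in treated livers. Its difference of 0.79 (0.04 to 1.54) had an unadjusted limma p of 0.042 and an adjusted p of 0.979. The third (1389543_at) differed by 0.16, and the mean of the 3 by 0.20. Which transcript each probe set reads was not analysed here. Masp2, the protease that cuts C4 and C2, averaged 10.55 ± 0.34 and 10.82 ± 0.36 (1371025_at), a difference of 0.27 (−0.22 to 0.77). Its second probe set (1371098_a_at) differed by 0.29 and the third (1393156_at) by −0.21, with vehicle 1, vehicle 3 and treated 4 highest for the third.

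**Figure D4:**
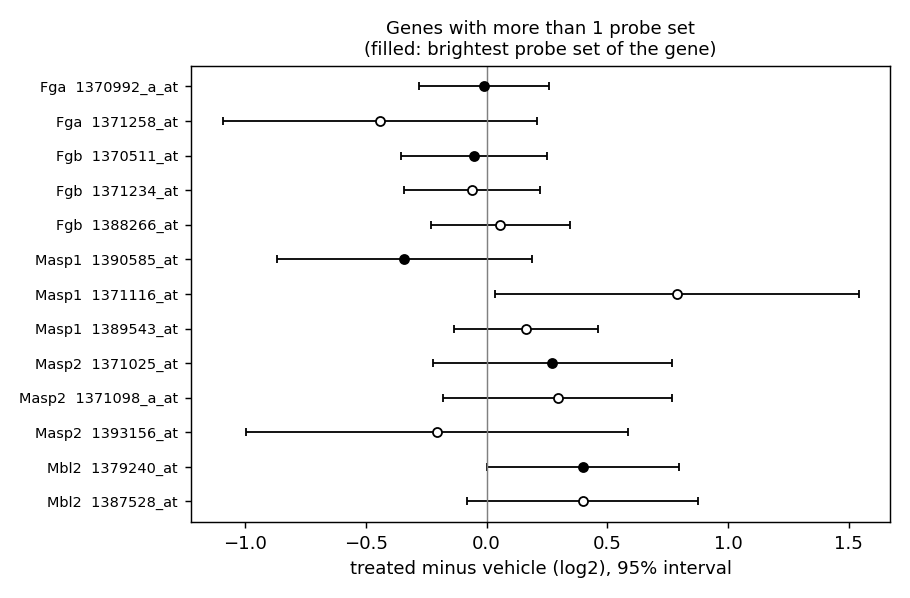
The horizontal axis is the difference treated minus vehicle on the log2 scale with its 95% interval for every probe set of the 5 genes that have more than 1. Filled dots are the brightest probe set of each gene. The 3 probe sets of Masp1 range from −0.34 to 0.79, whereas those of Mbl2 stand at 0.40 and 0.398.

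C3, on which all routes of complement activation converge, was the steadiest gene of the list. It had 14.26, 14.35, 14.24 and 14.21 in vehicle against 14.29, 14.26, 14.22 and 14.28 in treated livers. All 8 arrays lay within 0.14 of each other, and the interval of the difference ran from −0.21 to 0.20. Its values too lie close to the top of the scale.

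The terminal components, which assemble the membrane pore, were all higher on treated 1 than on vehicle 3, but only C8a and C8g had both extremes there. C5, C8b and C9 were also highest on treated 1, and they were lowest on treated 2, treated 3 and treated 4 in turn. C8a and C8g, chains of the C8 complex, differed by 0.290 (−0.17 to 0.75) and 0.295 (−0.19 to 0.78), both highest on treated 1 and lowest on vehicle 3. Without these arrays they differed by 0.01 and 0.02. C5, whose cleavage starts the pore, averaged 11.59 ± 0.18 and 11.59 ± 0.29. C6 had 9.35, 10.13, 9.12 and 9.43 in vehicle against 9.80, 9.65, 9.40 and 8.90 in treated livers. Vehicle 2 was highest and treated 4 lowest, and the difference of −0.07 (−0.65 to 0.50) was 0.13 without vehicle 2, 0.11 without treated 4 and −0.32 without vehicle 3 and treated 1. C9, which polymerizes into the pore wall, had 13.16, 13.06, 12.88 and 12.92 and then 13.33, 13.001, 12.87 and 12.68. The treated arrays bracketed the vehicle arrays, and the difference was −0.03 (−0.38 to 0.31).

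C8b, the beta chain of C8, had a pattern of its own over the arrays. It stood at 11.91, 11.59, 11.72 and 10.51 in the vehicle livers and at 12.27, 11.78, 10.44 and 11.28 in the treated livers, in replicate order. The nearly identical vehicle 4 and treated 3 were lowest, so that the span of 1.82 was wider than that of Klkb1 while the difference was 0.01 (−0.93 to 0.96). On the same 2 arrays C8a, its direct neighbour in the GRCr8 annotation, stood at 11.72 and 11.78, within its range on the other arrays. Like Klkb1, C8b was singled out after its values were seen.

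**Figure D5:**
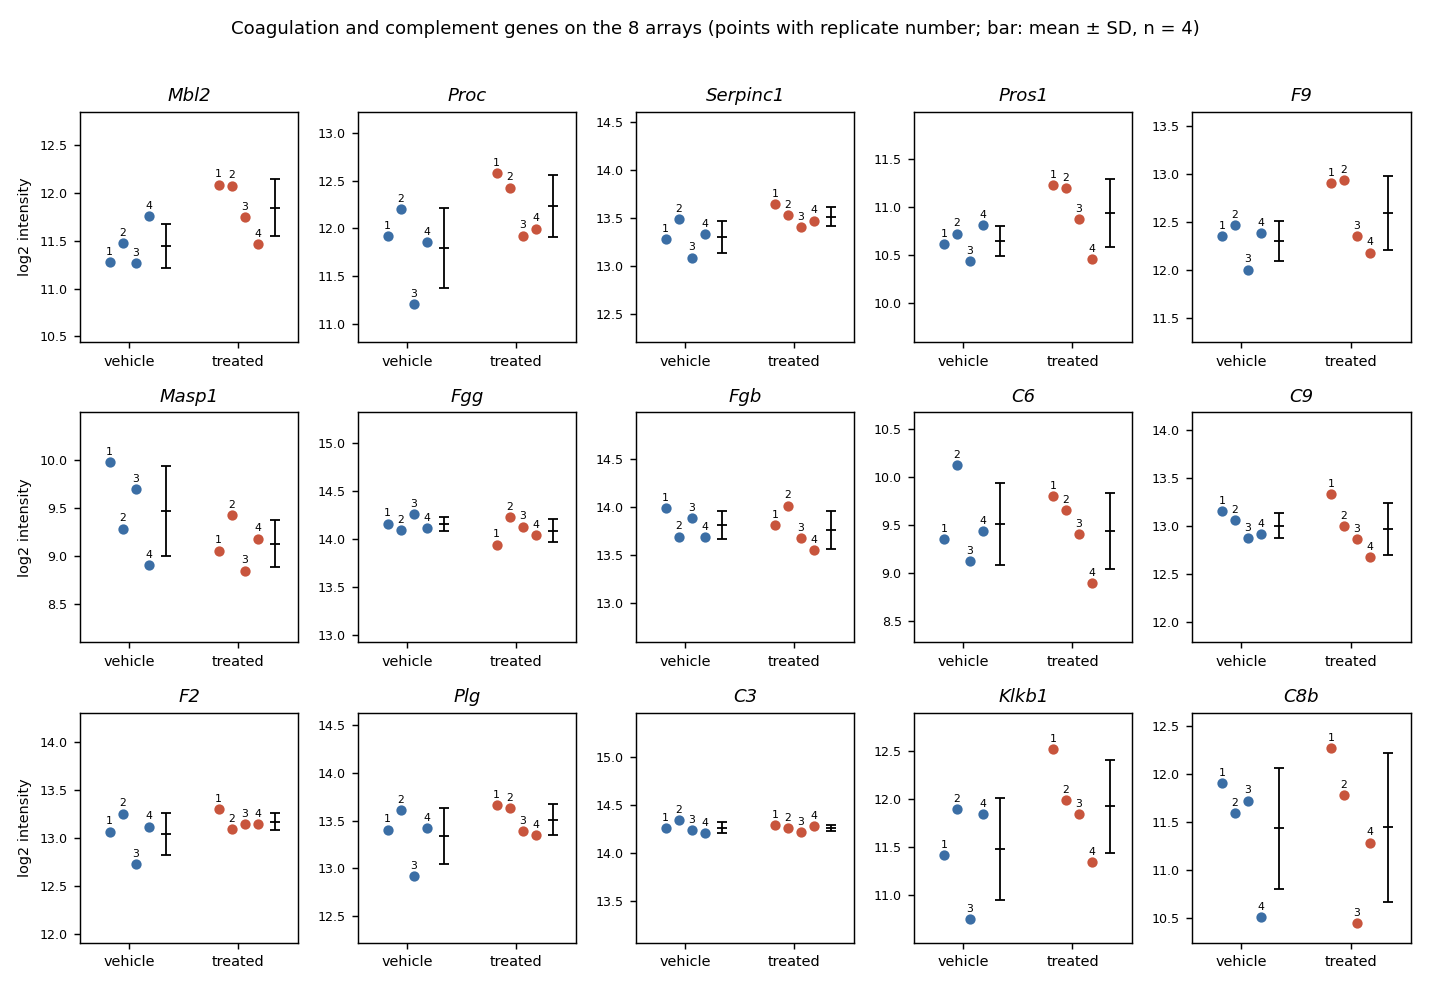
Each panel shows the log2 intensity of 1 gene on the 4 vehicle arrays (blue) and the 4 treated arrays (red), with the replicate number over each point and the mean ± SD beside each group. All vertical axes span the same 2.4 log2 units. The groups overlap in every panel. Vehicle 3 is the lowest point for Mbl2, Proc, Serpinc1, Pros1, F9, F2, Plg and Klkb1, and vehicle 4 and treated 3 are the lowest for C8b.

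The complement regulators limit the convertases that cut C3. Cfi, the protease that inactivates C3b, averaged 13.21 ± 0.19 and 13.33 ± 0.17 (difference 0.12). C4bpa and C4bpb, the chains of C4b-binding protein, differed by 0.03 and 0.23. C4bpb spanned 1.04 over the arrays and C4bpa 0.36, and both were highest on treated 1 and lowest on vehicle 3.

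Many of the other genes of these pathways are expressed outside hepatocytes. Of 31 other coagulation and fibrinolysis genes 12 were higher and 19 lower in treated livers, with a median of −0.16. None passed (0 at an adjusted limma p under 0.05), and 1 was lower at an unadjusted p under 0.05, against 2.8% of all genes. Without vehicle 4 and treated 3 it was 6, against 5.24%. The gene lower on the 8 arrays was F2r, a thrombin receptor, which averaged 8.88 ± 0.77 in vehicle against 7.87 ± 0.68 in treated livers (they differ by −1.01, −1.98 to −0.04). Plat, tissue plasminogen activator, averaged 9.15 ± 0.95 and 7.72 ± 1.24, and F3, tissue factor, 5.61 ± 1.26 and 4.40 ± 0.84. Fgl1, a fibrinogen-like protein of hepatocytes, averaged 12.54 ± 0.19 and 12.98 ± 0.44, higher in the treated group by 0.44 (−0.04 to 0.92).

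Of 24 other complement genes 11 were higher and 13 lower, with a median of −0.03. At an adjusted p under 0.05 limma called 0 of them, and 2 were lower at an unadjusted p under 0.05, against 2.8% of all genes. Without vehicle 4 and treated 3 the count was also 2, against 5.24%. C5ar1, the C5a receptor of myeloid cells, averaged 7.53 ± 0.36 and 6.604 ± 0.52, a difference of −0.93 (−1.55 to −0.31; limma adjusted p = 0.979). Fcnb, a ficolin of myeloid cells, averaged 4.40 ± 0.14 and 4.03 ± 0.15 without overlap between the groups, as did 0.626% of all genes with treated lower, at a level not far above the 25th percentile of an array (3.74 to 3.91). C1qb and C1qc, chains of C1q, which macrophages make, differed by −0.78 (−1.67 to 0.12) and −0.68 (−1.63 to 0.27). The macrophage markers given above averaged lower in the treated group at 6 of 7 genes, but Clec4f and Cd68 by only −0.03 and −0.14. Cd163 was higher by 0.18. The median of these markers against their own means was 0.04 on treated 2 and 0.14 on treated 4, but −0.50 on vehicle 4. The part of these markers in the differences of the complement genes was not tested.

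A list of regulators of hepatocyte genes and of acute phase signalling was higher at 16 of 21 genes, against 51.6% of all genes, with a median of 0.18. It also holds cytokines (Il6, Il1b and Tnf) and the signalling inhibitor Socs3. Treated 2 stood apart for this list, with a mean log2 level of 9.07, while the other treated arrays, at 8.09 to 8.32, lay within the vehicle range of 8.00 to 8.36. Limma called 0 of them at an adjusted p under 0.05, and 2 were higher at an unadjusted p under 0.05, against 1.95% of all genes. Without vehicle 4 and treated 3, 17 of 21 were higher with a median of 0.28, and 2 again had an unadjusted p under 0.05, against 3.32%. On the 8 arrays these were Foxa3, a forkhead factor, with a difference of 0.47 (0.06 to 0.88), and Nr1i3, the xenobiotic receptor CAR, with 1.15 (0.12 to 2.18). Their levels were low, with array medians at 5.16 to 5.3. Foxa3 averaged 5.40 ± 0.15 in vehicle and 5.86 ± 0.36 in treated livers, and Nr1i3 5.04 ± 0.88 and 6.19 ± 0.66. Without vehicle 3 and treated 1 they differed by 0.50 and 0.68. Cebpa, a C/EBP factor of hepatocytes, averaged 9.31 ± 0.80 in vehicle against 10.03 ± 0.50 in treated livers, which differ by 0.72 (−0.17 to 1.62). Foxa1 differed by 0.52 (−0.07 to 1.11). The 16 other hepatocyte plasma proteins had 10 genes higher and a median of 0.03 (10 and 0.04 without vehicle 4 and treated 3). Among these Apoa2 and Apoa1, the apolipoproteins of high-density lipoprotein, differed in opposite directions, by 0.92 (0.08 to 1.75) and −0.64 (−1.38 to 0.10). Rbp4 and Ahsg differed by 0.31 (−0.05 to 0.68) and −0.13 (−0.36 to 0.11). Whether the 29 genes differ from these plasma proteins as a group was not tested. Of the 11 hepatocyte markers 5 were higher and 6 lower, with a median of −0.07 (5 higher and −0.07 without vehicle 4 and treated 3). At an unadjusted limma p under 0.05, 2 were higher, against 1.95% of all genes. These were the receptor chains Asgr1 (0.57, 0.03 to 1.12) and Asgr2 (0.62, 0.04 to 1.19), which are not enzymes. Without vehicle 4 and treated 3 it was again these 2, against 3.32%. The enzyme gene Pck1 was lower without overlap between the groups (−0.41, −1.03 to 0.20), as were 0.626% of all genes.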

How the data were processed

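The deposited values are log2 intensities of 31099 probe sets on 8 arrays, and per the submitters' processing notes affy and RMA were used by the authors; RMA subtracts background, equalizes arrays and condenses the probes of a set to 1 value. The sources used here give no versions or settings. Total RNA was labelled from the 3′ end with an oligo(dT) primer, per the labels' protocols, so that a probe set's signal depends on its distance from that end. RMA tends to understate differences at low intensity, and bright probe sets approach the top of the scale.

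No further normalization was applied. After removal of 57 control probe sets, limma 3.58.1 (R 4.3.3; lmFit and eBayes) compared treated with vehicle on 31042 probe sets, with Benjamini-Hochberg adjustment and a threshold of 0.05. Arrays were grouped by sample title. Of the probe sets, 20826 had 1 gene symbol, 436 several and 9780 none listed. Each gene was represented by its brightest probe set with 1 symbol. Array values carry no molecule counts, so the number of arrays limits the precision. The script was tested on simulated data.

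Each gene is named at least once. Array by array values are given for the 5 genes with the smallest unadjusted p in each direction and for F2, Fgb, Serpinc1, Plg, C3 and C9, and from each further pathway list the 4 genes with the smallest p are named, unless stated otherwise. The genes and lists were chosen with earlier results of these data known, and therefore have no set test. Alternatives were 2 normalizations, centring on hepatocyte genes, a filter at a mean log2 value of 6, 2 variance models, array weights, blocks by replicate number and by spike-in group, the mean of all probe sets, and leaving out arrays. Promoters came from RefSeq (GRCr8) and carry that build's coordinates. The files name no genome build. Replicate numbers did not pair the arrays.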

Additional observations from a re-analysis of the deposited data

Results flagged for a closer look

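Among the 58 sets of 4 arrays (29 genes in each group), 2 had an array far from the other 3, where chance alone gives about 1 in 20. F5 stood at 10.28 on vehicle 3, against 10.93 to 10.95 on the other vehicle arrays, and Masp2 stood at 11.36 on treated 1, against 10.63 to 10.66 on the other treated arrays. These are the same 2 arrays that held the lowest and the highest values of most genes of the list.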

How the results depend on the processing

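Over the alternatives, 0 of 29 genes were called in each. Over all probe sets, 0 were called on 8 arrays, 3 without vehicle 4 and treated 3 together, and 0 to 11 when single arrays were left out (11 without vehicle 4). Leaving out single arrays moved the median difference of the 29 genes between 0.05 and 0.25 and the count above 0 between 20 and 25. Without vehicle 3 and treated 1 together, an alternative chosen after seeing the data, the median turned to −0.0203 with 13 genes above 0, and Fgg stood at 0.0115, F2 at −0.0186 and Plg at −0.0203. Median centring turned Fgb to 0.0020, C9 to 0.0208 and C3 to 0.0510, and the mean of all probe sets turned Masp1 to 0.20. Leaving out single arrays gave −0.136 to 0.0195 for Fgb, −0.20 to 0.13 for C6, −0.153 to 0.0643 for C9 and −0.0210 to 0.0247 for C3; the cause was not tested, and these differences lie near 0 in the main model. The replicate number does not pair the arrays: deviations of same-numbered arrays correlated at −0.114, 0.041, −0.124 and −0.620, and 0 of 4 vehicle arrays lay closest to their own number. With the replicate block, as without it, 0 probe sets were called, and 21 genes stood above 0 with a median of 0.16.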

Other observations

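Values for C2 and Cfb, and for Kng1, came only from probe sets that the annotation ties to several genes, and these belong in no comparison above. The 4 probe sets listed for both Cfb and C2 differed by 0.15 to 0.35 between the groups. For 1383391_a_at the interval was 0.02 to 0.68, with an unadjusted limma p of 0.039 and an adjusted p of 0.979. For the others the interval included 0. The brightest of the 4 (1389470_at) had 12.65, 12.84, 12.21 and 12.50 in the vehicle livers, against 13.004, 12.75, 12.53 and 12.50 in the treated livers. It was lowest on vehicle 3 and highest on treated 1. The probe set shared by Kng1, Kng2 and Kng2l1 (1387050_s_at), which encode kininogens, stood at 13.56 to 13.68 on the vehicle arrays and at 14.07, 13.67, 13.60 and 13.61 on the treated arrays, so that treated 1 alone lay above the vehicle range.

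Platelets carry their own transcripts, and markers of platelets and megakaryocytes were higher in treated livers at 4 of 5 genes with a median of 0.12 (4 and 0.06 without vehicle 4 and treated 3). Itga2b, the platelet integrin chain, averaged 6.07 ± 0.39 in vehicle against 6.39 ± 0.32 in treated livers, and Pf4, platelet factor 4, 8.30 ± 0.66 and 8.23 ± 1.03. Of 3 red cell markers 2 were lower and 1 higher, with a median of −0.61 (1 higher and −0.92 without vehicle 4 and treated 3). Alas2, an enzyme of haem synthesis, differed by −0.61 (−1.14 to −0.09) and Slc4a1, the anion exchanger of the red cell membrane, by 0.01 (−0.30 to 0.32). Hbb, beta globin, averaged 10.75 ± 0.91 and 8.94 ± 0.59 (difference −1.80, −2.83 to −0.78; limma adjusted p = 0.979), and was chosen after its values were seen, as were the other platelet and red cell genes named here.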
